A study of Homo sapiens with 6 samples.

Results

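The cells described here are the control of a microRNA study, 2 samples among 6 samples of NCI-H2023, an established human lung adenocarcinoma line. They were chosen by their titles, which name a control mimic and the letters A and B. In the other 4, a synthetic mimic of miR-223-3p (2 samples) or of miR-29a-3p (2 samples) was introduced. All 6 were reverse transfected with a lipid reagent at 0.5 nM of RNA, with new medium at 24 h, so the control cells also went through transfection. The titles speak of a mimic control, while the treatment text names a negative control siRNA. No harvest time is given, and nothing says that A and B were separate cultures, so their spread may be technical. All 6 samples come from this 1 cell line.

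Total RNA was hybridised to arrays, 1 per sample, and the deposited values are log2 signals for 17687 named genes. Control samples A and B correlated at 0.995 across genes, and their difference had an SD of 0.3373. The median absolute difference was 0.11 among bright genes, 0.18 among detected genes and 0.25 among genes not detected. Probe sets bind with different strength, so an order of signals is an order of brightness, not of transcript numbers. Where genes are set side by side below, it is their signals that are compared, not their amounts. A gene not detected may also have a weak probe set.

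The files hold no detection call. A floor was therefore taken from the 348 olfactory receptor genes on the array, a family read mainly in the nose. Their 95th percentile (log2) was 4.98 for sample A and 5.06 for B. A gene above this floor in both control samples is called detected, which held for 61.5% of all genes. A stricter floor from 107 keratin-associated protein and bitter taste receptor genes, at 6.78 and 6.47, left 48.0%. At the first floor 24 of these 107 genes were themselves called detected. Genes between the floors are named as such, and genes past the 90th percentile of both arrays, 9.56% of all, are called bright. Of 699 genes in the lists used below 613 were measured, and counts refer to measured genes.

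An adenocarcinoma of the lung is commonly recognised by the transcription factor NKX2-1, by surfactant proteins and by napsin A, the products of alveolar type 2 cells. The liver, gut and lung all arise from the embryonic endoderm and share the FOXA factors. Tumours of the lung can lose the lung program and carry genes of the other endodermal organs. Hepatocytes release albumin, fibrinogen, complement and lipoproteins into plasma, under factors that include HNF4A and C/EBP alpha.

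The control cells gave bright signals for fibrinogen, complement C3, retinol-binding protein and the urea-cycle enzyme CPS1. Most other genes of the liver lists were not bright, and 29 of 51 plasma protein genes were not detected. Nor were 22 of 32 hepatocyte enzymes and transporters. Signals were near the floor for NKX2-1, surfactant proteins B and C, and napsin A. Keratins of simple epithelia were bright, and so was vimentin, the 1 bright gene of 16 mesenchymal markers. The aldo-keto reductases and the thioredoxin and glutathione genes gave some of the brightest signals of the array. Cadherin-17 of the gut was bright, while most other gut genes were not detected.

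**Figure D1:**
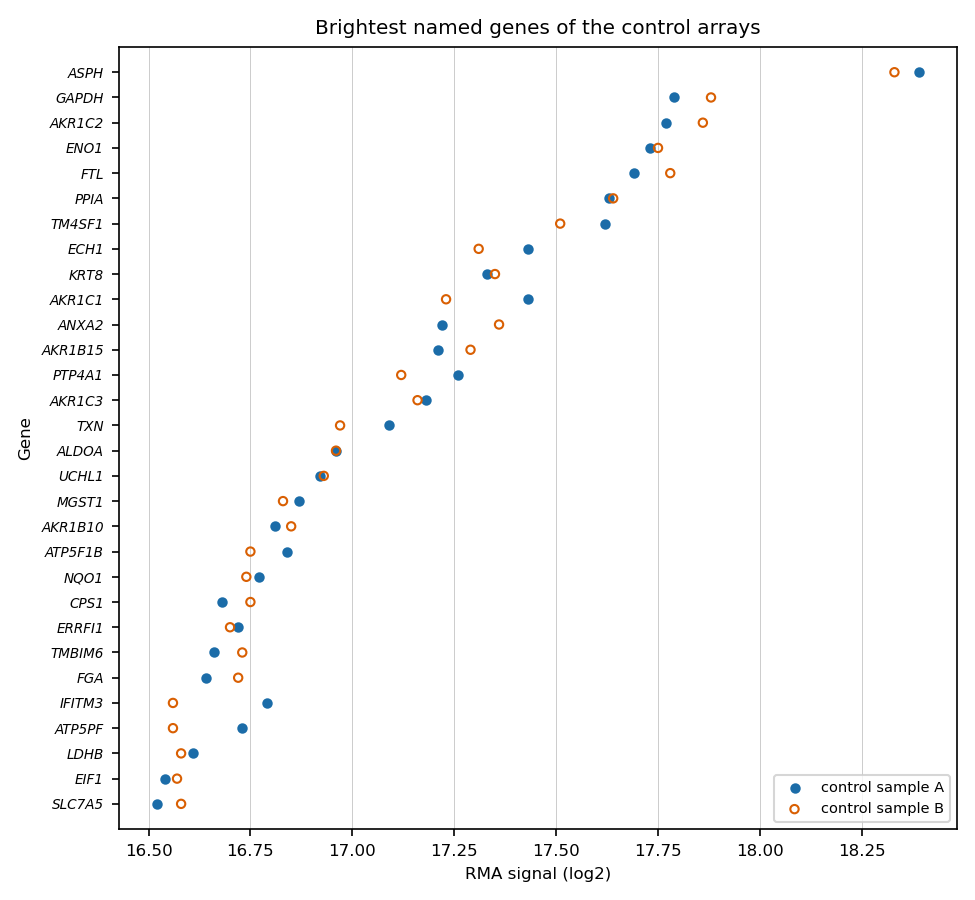
Log2 RMA signal (x axis) of the 30 brightest named genes of the control cells (y axis), leaving out ribosomal protein, histone, tubulin, actin, elongation factor and small RNA genes. Filled points are control sample A and open points sample B, and the aldo-keto reductases AKR1C2, AKR1C1, AKR1C3, AKR1B15 and AKR1B10 all lie above 16.8.

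Among the 100 brightest genes, 32 belonged to the classes left out of the plot of the brightest genes, 23 of them ribosomal proteins. The brightest gene was ASPH, an aspartate hydroxylase of the endoplasmic reticulum, at 18.39 and 18.33. GAPDH, ENO1 and ALDOA of glycolysis, the ferritin light chain FTL and the thioredoxin TXN followed in the top 30. TM4SF1, a membrane protein of many carcinomas, measured 17.62 and 17.51. ANXA2, a membrane-binding annexin, measured 17.22 and 17.36, and SLC7A5, an amino acid importer, 16.52 and 16.58. The microsomal glutathione transferase MGST1 measured 16.87 and 16.83. ERRFI1, an inhibitor of the EGF receptor, stood at 16.72 and 16.70. UCHL1, known from neurons, and CPS1 and FGA, known from the liver, also belonged to the 30.

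These bright genes were much the same in the other 4 samples of the line. Of the 100 brightest control genes, 91 were among the 100 brightest after miR-223-3p and 93 after miR-29a-3p. Of the genes detected in control, 97.0% were detected with the first mimic and 97.6% with the second.

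The alveolar markers were largely at the floor. Of 14 measured type 2 markers 5 were detected, and 3 passed the stricter floor, against 61.5% and 48.0% of all genes. The list median was 4.62, beside 6.58 over all genes. NKX2-1 measured 4.91 in A and 5.04 in B, just under the floor in both. Surfactant protein B (SFTPB) measured 5.04 and 4.27, above the floor in sample A and below it in B. SFTPC, the surfactant protein restricted to type 2 cells, stood at 3.80 and 4.04, and napsin A (NAPSA), an aspartic protease of surfactant processing, at 3.52 and 4.05. These 4 defining markers were therefore not detected in a line labelled as lung adenocarcinoma.

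The type 2 genes past the stricter floor are not confined to those cells. They were ETV5, an ETS factor downstream of growth factor signals, at 9.02 and 9.06, LPCAT1, a phospholipid remodelling enzyme, at 7.89 and 8.46, and ABCA3, the lipid pump of lamellar bodies, at 7.51 and 7.89. SFTPD at 5.85 and 5.64 and SFTPA2 at 5.13 and 5.20 lay between the floors. The other undetected members were SFTPA1, SLC34A2, LAMP3, SFTA2 and PGC, with means from 3.425 to 4.585. SFTPA1 and SFTPA2 are near-identical neighbours whose probes may share signal.

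Other airway cell types were as sparse, beside 61.5% of all genes detected and 48.0% past the stricter floor. Of 10 type 1 markers, EMP2 at 14.27 and 14.22, the caveolin CAV1 at 12.71 and 12.27, and RTKN2 at 8.71 and 8.17 were detected, while AGER, the receptor that marks type 1 cells, stood at 3.92 and 4.24. Of 10 airway secretory markers 3 were detected and 0 passed the stricter floor. MUC5B was the highest of these at 6.69 and 6.73, and SCGB1A1, the club cell protein, measured 3.21 and 2.90. None of 10 ciliated cell genes was detected, with FOXJ1, the master regulator of motile cilia, at 4.60 and 4.99. In the basal and squamous list 3 of 8 were detected and 0 passed the stricter floor. KRT5 measured 4.18 and 4.64 there, while SOX2, at 5.26 and 5.24, lay between the floors.

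The neuroendocrine list was split. UCHL1, a ubiquitin hydrolase of neurons and neuroendocrine cells, measured 16.92 and 16.93, and NCAM1, the neural cell adhesion molecule CD56, 13.09 and 13.46. Both are bright. The granule and synaptic vesicle proteins chromogranin A (CHGA) and synaptophysin (SYP) were not detected, at 3.53 and 3.73 and at 4.47 and 4.71. INSM1, a transcription factor of neuroendocrine cells, was not detected either. GRP, CALCA and DDC lay between the floors.

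**Figure D2:**
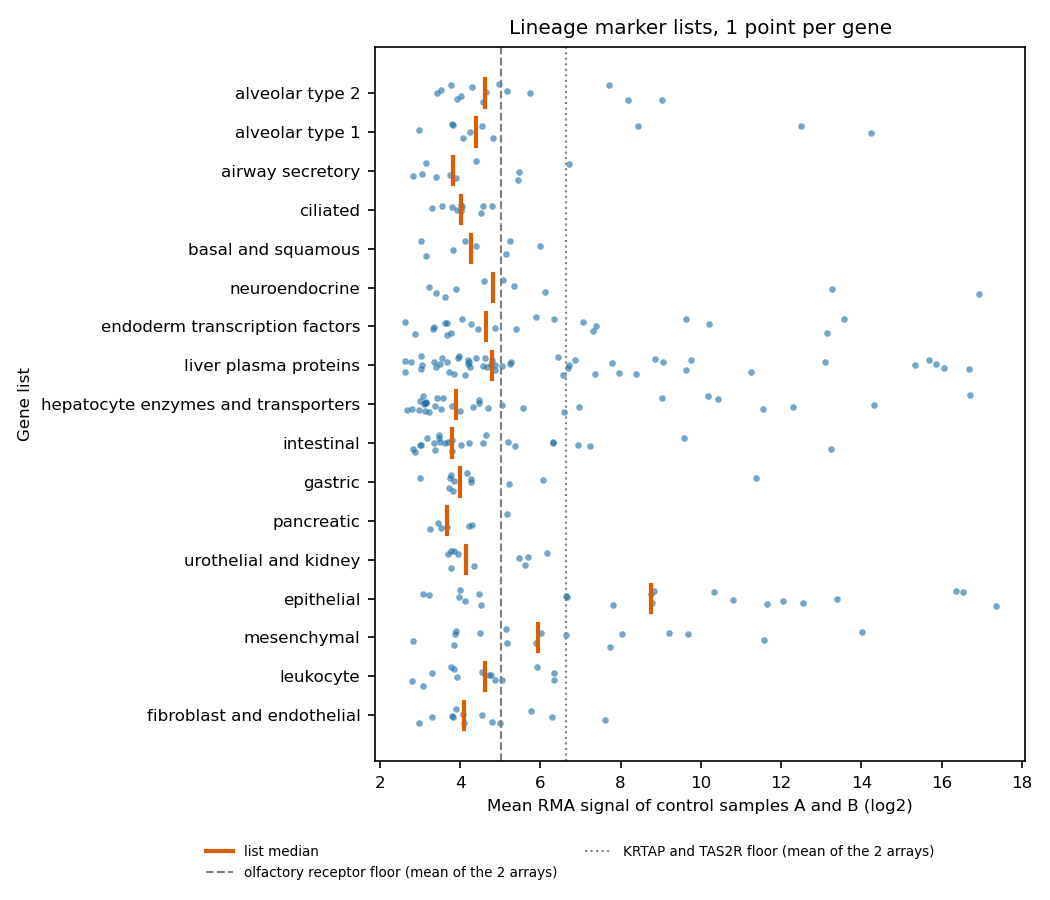
Mean log2 RMA signal of control samples A and B (x axis) for every measured gene of each lineage list (y axis), with 1 point per gene and a vertical bar at the list median. Dashed and dotted lines are the 2 floors, and only the epithelial list has a median above the stricter floor, at 8.77.

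In the epithelial list 15 of 22 genes were detected (68.2%) and 13 passed the stricter floor, close to the 61.5% and 48.0% of all genes, so these counts set the list apart little. Single members were among the brightest genes. The simple-epithelium keratins KRT8, KRT18 and KRT7 measured 17.33 and 17.35, 16.44 and 16.60, and 16.37 and 16.34. CDH1, the adherens junction cadherin, measured 10.79 and 10.82, and EPCAM 10.49 and 10.16. Tight junction genes were mixed, with CLDN1 at 13.59 and 13.19 and TJP1 at 12.56 and 12.54, but CLDN4 at 3.39 and 3.05 and CLDN3 at 4.77 and 4.29. ESRP1, the epithelial splicing regulator, and GRHL2, a keeper of epithelial junctions, were not detected, at 4.36 and 3.90 and at 3.61 and 3.95. ST14, RAB25 and AP1M2 were not detected either.

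Of 16 mesenchymal markers 11 were detected (68.8%, beside 61.5% of all genes) and 6 passed the stricter floor, where 48.0% of all genes did. These counts too are no result about the list, and the values of single members follow. Vimentin (VIM), the intermediate filament of mesenchymal cells, measured 13.95 and 14.07. ZEB1, a repressor of CDH1 and ESRP1, measured 11.79 and 11.36, SNAI1 8.27 and 7.81, fibronectin (FN1) 9.04 and 9.38, and CDH2 7.64 and 7.83. ZEB2 and SPARC, a matrix protein of fibroblasts, were not detected, the latter at 3.07 and 2.60. Markers of cells foreign to a line were near the floor. Of 14 leukocyte genes 3 were detected and 0 passed the stricter floor, with PTPRC (CD45) at 4.63 and 4.81. Of 13 fibroblast and endothelial genes 3 were detected and COL1A2, at 7.5 and 7.72, was the 1 past the stricter floor, while PDGFRA, DCN, LUM, PECAM1 and CDH5 were not detected.

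Of 27 endodermal transcription factors listed 22 were measured, and HNF4A is among those not analysed here. Of the 22, 10 were detected (45.5%, beside 61.5% of all genes) and 7 passed the stricter floor, where 48.0% of all genes did. KLF5, a Krüppel-like factor of gut and lung epithelium, measured 13.61 and 13.54, and NR5A2, the nuclear receptor LRH-1 of liver, pancreas and gut, 13.25 and 13.03. HNF4G, the gut relative of HNF4A, measured 10.37 and 10.01, and ELF3 9.78 and 9.47. FOXA1, a pioneer factor of all endoderm, measured 7.44 and 7.32, ONECUT2 (HNF6 beta) 7.48 and 7.16, and SOX9 7.02 and 7.13. FOXA2 at 6.20 and 6.47, EHF at 5.98 and 5.83, and GATA6 at 5.31 and 5.49 lay between the floors. CEBPA, the hepatocyte and alveolar factor C/EBP alpha, was not detected at 3.66 and 3.67, nor were FOXA3, GATA4, PROX1, NR1I3, NR0B2, PDX1 or ONECUT1.

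Plasma proteins of the liver ranged from among the brightest signals down to the floor, as the plot of these genes shows. Of 51 measured 22 were detected (43.1%, beside 61.5% of all genes), 16 of them past the stricter floor and 6 bright. The list median was 4.79. The 3 fibrinogen chains form the clot precursor and are neighbours on chromosome 4. FGA (154583126 to 154590742, GRCh38) measured 16.64 and 16.72, FGB (154562980 to 154572807) 16.07 and 16.05, and FGG (154604136 to 154612656) 15.63 and 15.74. C3, the central complement protein, measured 15.80 and 15.90, RBP4, the plasma carrier of retinol, 15.29 and 15.37, and C5 13.03 and 13.16. In each of these 6 genes A and B lay within 0.13 of each other.

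**Figure D3:**
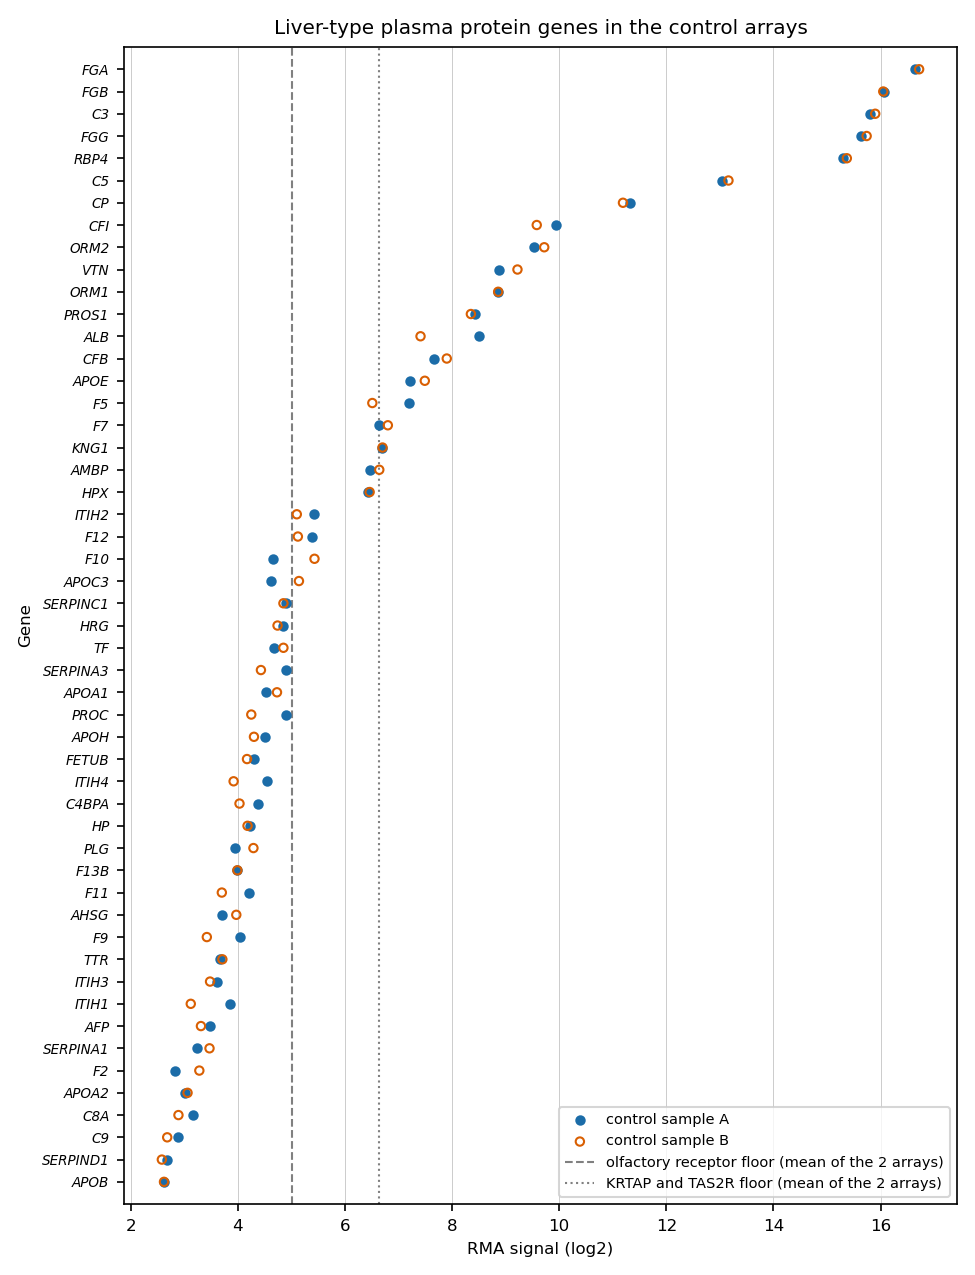
Log2 RMA signal (x axis) of the 51 liver-type plasma protein genes (y axis) in control sample A (filled) and B (open), with the 2 floors as vertical lines. FGA, FGB, C3, FGG and RBP4 stand above 15, and 29 genes were not detected.

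A middle group held ceruloplasmin (CP), the copper-carrying ferroxidase, at 11.33 and 11.19, complement factor I (CFI) at 9.94 and 9.58, and the acute-phase genes ORM2 and ORM1 at 9.53 and 9.72 and at 8.85 and 8.86. ORM1 and ORM2 are near-identical and may share probe signal. VTN, a cell-binding plasma protein, measured 8.88 and 9.22, PROS1 8.42 and 8.35, CFB 7.67 and 7.90, APOE 7.22 and 7.49, and F5 7.20 and 6.51. Albumin (ALB) measured 8.5 in A and 7.41 in B, an SD of 0.7707. This was the widest spread among the 22 detected genes of the list. F7, KNG1, AMBP, HPX, ITIH2 and F12 lay between the floors.

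Other proteins that hepatocytes release in bulk were not detected. Transthyretin (TTR) measured 3.66 and 3.71, alpha-fetoprotein (AFP) 3.47 and 3.31, and apolipoprotein B (APOB), the backbone of very low density lipoprotein, 2.62 and 2.62. APOA1, the core of high density lipoprotein, measured 4.52 and 4.73, and APOA2 3.01 and 3.06. The protease inhibitor SERPINA1 stood at 3.23 and 3.47, haptoglobin (HP) at 4.22 and 4.18, transferrin (TF) at 4.68 and 4.85, and AHSG at 3.71 and 3.97. The remaining 20 undetected genes were the coagulation genes F2, F9, F10, F11, F13B, PROC, PLG, SERPINC1 and SERPIND1, the complement genes C8A, C9 and C4BPA, and APOC3, APOH, HRG, FETUB, SERPINA3, ITIH1, ITIH3 and ITIH4. Bright fibrinogen genes thus stood beside APOB, APOA1 and APOA2 at the floor.

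Of 32 hepatocyte enzymes and transporters 10 were detected (31.2%, beside 61.5% of all genes), 8 of them past the stricter floor and 3 bright, and the median was 3.90. CPS1, which feeds ammonia into the urea cycle (chromosome 2, 210477685 to 210679107), measured 16.68 and 16.75. HPD and HGD, consecutive enzymes of tyrosine breakdown, measured 14.33 and 14.27 and 11.53 and 11.56. SLCO1B3, an importer of bile acids and drugs in hepatocytes, measured 12.47 and 12.10, while its neighbour SLCO1B1 stood at 4.59 and 4.79. TM4SF4, a tetraspan protein of liver and gut, measured 10.30 and 10.03. TDO2, KHK and PCK1 measured 6.95 and 7.0, 6.47 and 6.73, and 5.50 and 5.62, the latter pair between the floors. The drug-metabolising P450 genes CYP3A4, CYP2C8, CYP2E1 and CYP1A2 and the bile acid genes CYP7A1, CYP8B1, BAAT, ABCB11 and SLC10A1 were not detected, with means from 2.81 to 4.315.

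The urea cycle was incomplete at the level of these signals. CPS1, ASS1 at 10.11 and 10.74, ASL at 8.74 and 9.30, and the citrin carrier SLC25A13 at 11.43 and 11.47 passed the stricter floor, and NAGS lay between the floors. OTC, the enzyme that joins carbamoyl phosphate to ornithine, was not detected at 3.97 and 3.19. Neither arginase was detected, with ARG1 at 3.28 and 3.56 and ARG2 at 3.36 and 3.46.

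In the intestinal list 8 of 26 genes were detected (30.8%, beside 61.5% of all genes), with a median of 3.80. The stricter floor was passed by 4, where 48.0% of all genes passed it. CDH17, the liver-intestine cadherin, measured 13.35 and 13.13 and was the 1 bright gene of the list. MUC13, a membrane mucin of the gut, measured 9.72 and 9.44, CEACAM6 7.21 and 7.25, and APOA4 6.96 and 6.94. CDX2, the intestinal homeobox factor, lay between the floors at 6.41 and 6.20, as did EPS8L3, CEACAM5 and MUC2. VIL1, LGALS4, GUCY2C, FABP1, SI, TFF3, LGR5 and CDX1 were among the 18 not detected, with means of the list down to 2.82. CDH17 is thus bright in cells where villin, at 3.56 and 3.45, and the guanylate cyclase GUCY2C, at 3.36 and 3.39, were at the floor.

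Markers of stomach, pancreas and urothelium gave few signals, beside 61.5% of all genes detected and 48.0% past the stricter floor. ANXA10, an annexin of gastric epithelium, measured 11.22 and 11.51 and was the 1 gene of 12 gastric markers past the stricter floor, while CLDN18, TFF1, TFF2 and GKN1 were not detected. None of 7 pancreatic markers was detected. Of 10 urothelial and kidney genes 4 were detected and 0 passed the stricter floor.

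Secreted products were uneven. In the list of growth factors, hormones and cytokines 26 of 37 were detected (70.3%, beside 61.5% of all genes). The stricter floor was passed by 18, where 48.0% of all genes passed it. These counts set the list apart little. Of the 37, 6 were bright, beside 9.56% of all genes. SPP1 (osteopontin), an adhesive glycoprotein, measured 15.98 and 15.97, and CXCL5, a neutrophil chemokine, 15.55 and 15.64. AGR2, a disulfide isomerase of mucus-making cells, measured 14.89 and 14.71, the macrophage growth factor CSF1 14.40 and 14.39, neurotensin (NTS) 13.05 and 13.02, and VEGFA 12.65 and 12.21. CCL2 measured 10.56 and 10.09, DKK1 9.85 and 10.23, CXCL1 8.86 and 9.12 and CXCL8 7.12 and 7.34. IL6, IGF2, CSF3 and BMP4 were not detected, with IL6 at 3.76 and 3.26.

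Of 24 protease inhibitors and proteases 11 were detected (45.8%, beside 61.5% of all genes), each of them also past the stricter floor. SLPI, the secretory leukocyte protease inhibitor, measured 15.29 and 15.55, TIMP1 12.95 and 12.78, PLAU 11 and 11.31, and MMP7, the epithelial metalloprotease matrilysin, 8.41 and 8.66. MMP1, MMP9, MMP10, MMP14 and the kallikreins KLK6, KLK10 and KLK11 were not detected. Of 13 mucins 6 were detected (46.2%), and MUC13 was the 1 past the stricter floor. MUC1 measured 6.88 and 6.44, and MUC5AC 4.75 and 4.03.

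The 42 measured of 44 listed genes of the export machinery of the endoplasmic reticulum were detected, with 31 bright and a median of 13.19. Of all genes 61.5% were detected and 9.56% bright. The translocon-associated SSR2 measured 16.20 and 16.16, the chaperone CALR 16.17 and 16.16, and the oligosaccharyl transferase subunits RPN1 and RPN2 16.07 and 16.17 and 15.92 and 15.87. HSPA5 (BiP), the lumenal Hsp70, measured 15.39 and 15.45. LMAN1, a cargo receptor for coagulation factors, measured 14.61 and 14.69. These genes serve secretion in cells of every kind.

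**Figure D4:**
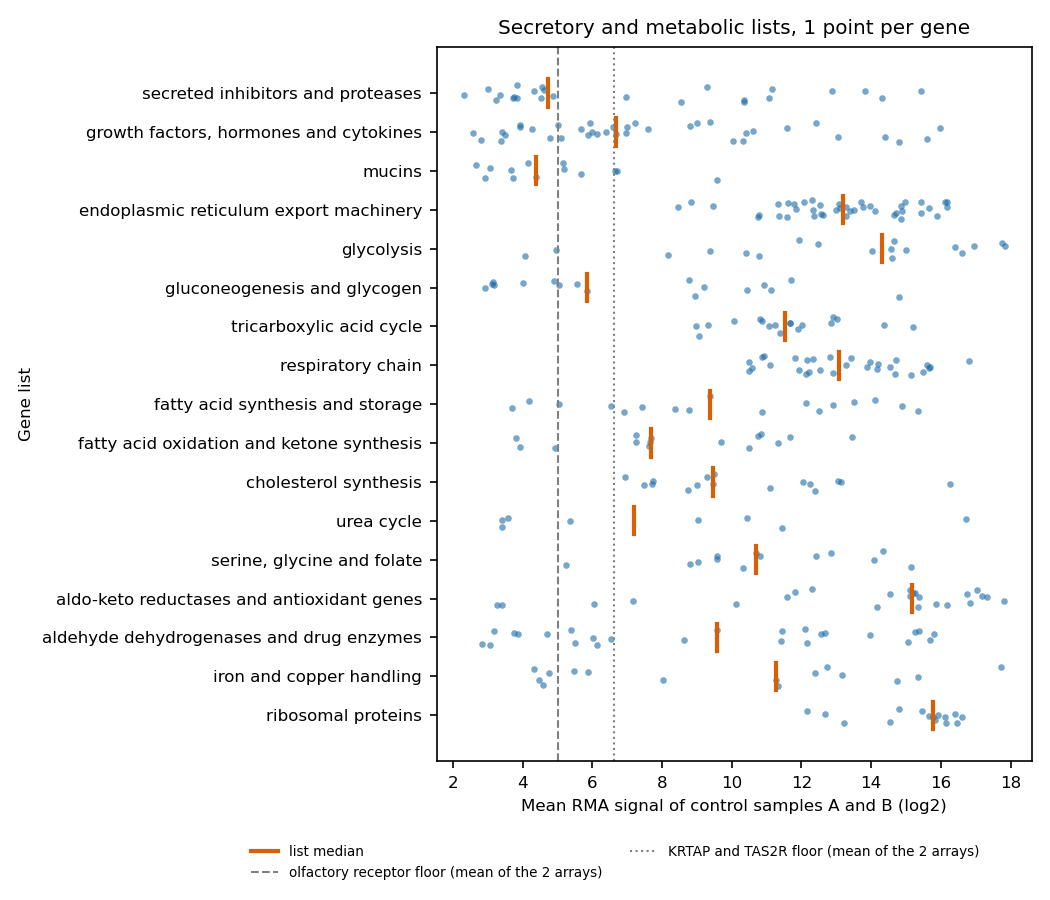
Mean log2 RMA signal of control samples A and B (x axis) for every measured gene of the secretory and metabolic lists and of ribosomal proteins (y axis), with 1 point per gene, a bar at each list median and the 2 floors as lines. The aldo-keto reductase and antioxidant list has a median of 15.16, beside 15.77 for ribosomal proteins and 4.39 for mucins.

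The aldo-keto reductase and antioxidant list had 22 of 24 genes detected and 17 bright, with a median of 15.16. Of all genes 61.5% were detected and 9.56% bright. Many of these genes are classical targets of NRF2, the transcription factor of the electrophile response. AKR1C2, AKR1C1 and AKR1C3, steroid and carbonyl reductases, measured 17.77 and 17.86, 17.43 and 17.23, and 17.18 and 17.16. AKR1B10, a retinal and aldehyde reductase, measured 16.81 and 16.85. The AKR1C genes, and AKR1B10 and AKR1B15, are near-identical copies, so their signals may not be separate. AKR1C4, the liver member, lay between the floors at 5.75 and 6.36, and AKR1D1 was not detected.

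The quinone reductase NQO1 measured 16.77 and 16.74, TXN 17.09 and 16.97, its reductase TXNRD1 15.79 and 15.93, and PRDX1 16.14 and 16.22. Glutathione genes followed, with GPX2 at 15.12 and 15.10, GCLC at 14.53 and 14.52 and the cystine importer SLC7A11 at 14.21 and 14.12. The pentose phosphate enzymes PGD and TKT and the malic enzyme ME1, which supply NADPH, measured 15.39 and 15.34, 15.12 and 15.26, and 15.29 and 15.22. HMOX1, heme oxygenase, was far down in brightness at 7.21 and 7.13, and GSTA1 was not detected.

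The antioxidant response element bound by NRF2 was searched by its core letters on both strands of the 250 bases before each RefSeq start site, and 2.58% of the 14250 promoters matched to the array's genes held it. In the antioxidant list 3 of 19 promoters held it (15.8%), and 17 of the 19 belonged to detected genes. Among other lists 1 of 11 alveolar type 2 promoters held it (9.09%), 1 of 19 intestinal promoters (5.26%), 2 of 41 plasma protein promoters (4.88%) and 1 of 25 hepatocyte enzyme promoters (4.0%). With so few matches per list these shares are a description. They are shown because they belong to 3 enzymes of glutathione use and synthesis. The stretches are chr11:67583701-67583800 (plus strand) for GSTP1, chr14:64942814-64942913 (minus) for GPX2 and chr1:93909431-93909530 (minus) for GCLM, in GRCh38.p14, with the match in capitals and each run 5′ to 3′ on the gene's strand. The GSTP1 match also holds TGACTCA, the letters of an AP-1 site.
GSTP1: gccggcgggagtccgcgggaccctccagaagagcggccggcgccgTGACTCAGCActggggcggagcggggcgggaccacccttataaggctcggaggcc
GPX2: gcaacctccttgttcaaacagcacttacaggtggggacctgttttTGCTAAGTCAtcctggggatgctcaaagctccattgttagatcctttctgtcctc
GCLM: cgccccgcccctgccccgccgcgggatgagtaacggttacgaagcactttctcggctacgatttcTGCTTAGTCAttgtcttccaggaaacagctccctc

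The match lay 66 bases before the start site in GSTP1, 123 in GPX2 and 35 in GCLM. These genes measured 15.24 and 15.44, 15.12 and 15.10, and 11.53 and 11.65.

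Aldehyde dehydrogenases and drug enzymes were detected at 19 of 25 genes (76.0%), with 14 past the stricter floor, beside 61.5% and 48.0% of all genes. CYP24A1, which breaks down vitamin D, measured 15.81 and 15.78, the retinal dehydrogenase ALDH1A1 15.66 and 15.71, CYP4F11 15.45 and 15.31, the epoxide hydrolase EPHX1 15.27 and 15.24, and the carboxylesterase CES1 15.02 and 15.10. CYP1B1 measured 12.69 and 12.68, while CYP1A1 was not detected at 4.11 and 3.40. UGT2B7 and UGT2B15, which attach glucuronic acid, were not detected. The enzymes detected here are thus other genes than CYP3A4, CYP2C8, CYP2E1 and CYP1A2 above, which were at the floor. These 4 do not stand for the whole P450 family. Of its 50 measured genes 20 were detected, a smaller share than the 61.5% of all genes. Among the 20 were CYP4F2 at 12.60 and 12.78, CYP4F3 at 12.58 and 12.52, and CYP2D6, between the floors, at 6.26 and 6.15.

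Most measured genes of central carbon metabolism were detected, beside 61.5% of all genes. The 18 measured of 21 listed genes of the tricarboxylic acid cycle and the 30 measured of 34 nuclear genes of the respiratory chain were detected, with medians of 11.53 and 13.08, and 16 of 18 glycolytic genes. Citrate synthase (CS) measured 15.16 and 15.26, and ATP5F1B of the ATP synthase 16.84 and 16.75. LDHA measured 16.40 and 16.41. Among the hexokinases HK1 measured 10.57 and 11.01 while HK2, the isoform of many tumours, was not detected at 3.93 and 4.20. The end of gluconeogenesis was at the floor, with FBP1 at 3.17 and 3.09 and G6PC1 at 3.07 and 3.26, while the ubiquitous G6PC3 measured 14.80 and 14.79.

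Genes of lipid and amino acid synthesis were detected too, again beside 61.5% of all genes. In fatty acid synthesis and storage 15 of 17 genes were detected, led by the desaturases FADS2 at 15.23 and 15.44 and SCD at 14.91 and 14.85. FASN measured 12.79 and 13.04 and ACLY 13.46 and 13.54. The 16 measured of 20 cholesterol genes were detected, with MSMO1, a sterol oxidase, at 16.33 and 16.17. In fatty acid oxidation 12 of 15 were detected (80.0%), with the ketone enzyme BDH1 not detected. In serine, glycine and folate metabolism 12 of 13 were detected, with PSAT1 at 15.12 and 15.15, MTHFD2 at 14.29 and 14.37, SHMT2 at 14.01 and 14.16 and PHGDH at 10.51 and 10.91. Metal genes were detected at 11 of 15 (73.3%), nearer to the share of all genes. FTL measured 17.69 and 17.78, MT2A 15.37 and 15.32, the iron exporter SLC40A1 12.51 and 12.29 and the transferrin receptor TFRC 14.81 and 14.67. Hepcidin (HAMP) was not detected.

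The 613 measured genes of all lists were then compared between the control cells and each mimic, in 1 limma fit of all 6 samples adjusted over all genes. In such bulk samples fewer cells making a transcript and less of it per cell cannot be told apart. With a constant prior 1 list gene passed. TM4SF4 was 10.30 and 10.03 in control, 12.46 and 12.29 with miR-29a-3p, and rose 4.63-fold (log2 2.21, standard error 0.187, limma adjusted p = 0.0142). Its groups did not overlap, but the gene was picked by the same test, so this adds no support. Of all genes 0.0113% were called in this comparison, 0.00565% in each direction, and 8.86% had an unadjusted p under 0.05. The call was lost with the replicate letter as a block (adjusted p = 0.0741) and when any 1 of the 4 samples was left out (adjusted p from 0.182 to 0.297). With miR-223-3p the limma fit called 0 list genes and 0% of all genes, where 67 of the 613 list genes and 1343 of all genes (7.59%) had an unadjusted p under 0.05.

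In an alternative fit, limma's prior variance was allowed to vary with brightness, and it called 21 list genes with miR-223-3p (3.43%, beside 0.684% of all genes) and 18 with miR-29a-3p (2.94%, beside 1.03%). Over all genes 0.181% were higher and 0.503% lower with the first mimic, and 0.334% higher and 0.695% lower with the second. Each of the list genes called was detected in control. Among the 383 detected list genes the shares were 5.48% and 4.70%, beside 1.11% and 1.66% of all detected genes. The lists were chosen with earlier results of these samples known, so these shares are a description.

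**Figure D5:**
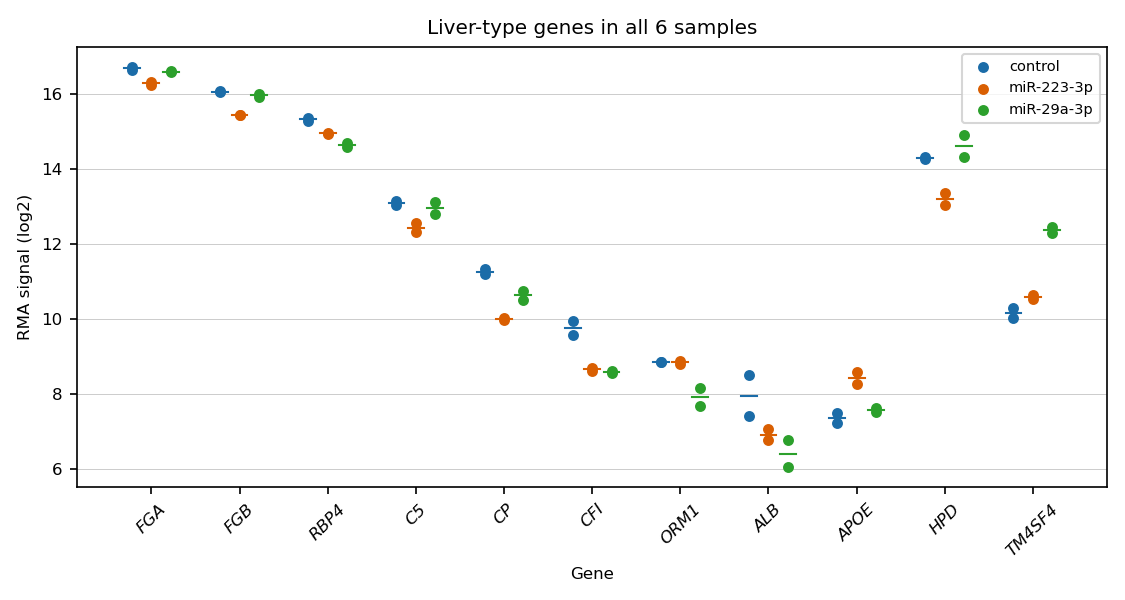
Log2 RMA signal (y axis) of 11 liver-type genes (x axis) called in the limma fit with the intensity trend, in all 6 samples, 2 of each group coloured by treatment, with a line at each group mean. TM4SF4 stands at 10.30 and 10.03 in control and at 12.46 and 12.29 with miR-29a-3p, and ALB at 8.5 and 7.41 in control and at 6.06 and 6.77 with miR-29a-3p.

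In that fit 6 of 51 liver plasma protein genes were called with miR-223-3p, 5 lower and 1 higher. Of all genes 0.503% were called lower and 0.181% higher. FGB was 16.07 and 16.05 in control and 15.45 and 15.45 with the mimic (log2 difference -0.61, adjusted p = 0.00203 with the trend and 0.451 without). CP was 11.33 and 11.19 against 10.04 and 9.97 (-1.255, adjusted p = 0.000528 and 0.169 in limma). FGA, C5 and CFI differed by -0.395, -0.655 and -1.10, and APOE by 1.075. The samples of both groups did not overlap in any of these 6 genes, but the genes were picked by this fit, so this adds no support. HPD, at 14.33 and 14.27 in control, was 13.36 and 13.03 with this mimic (-1.105, adjusted p = 0.00106 with the trend and 0.319 without, in limma).

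With miR-29a-3p the trend fit called 4 of 51 plasma protein genes lower and 0 higher, beside 0.695% and 0.334% of all genes. RBP4 was 15.29 and 15.37 in control and 14.59 and 14.69 with the mimic (log2 difference -0.69, limma adjusted p = 0.00124 with the trend and 0.28 without). CFI, ORM1 and ALB differed by -1.175, -0.925 and -1.54. The ALB difference was -0.995 without control sample A and -2.085 without control sample B. ALB had an adjusted p of 0.0247 in that fit and 0.258 with the constant prior, and its control samples differed by more than 1 on the log2 scale. Both comparisons use the same control samples. The median log2 difference of the 51 plasma protein genes was 0.03 with miR-223-3p and -0.10 with miR-29a-3p, beside 0.0 over all genes.

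Outside the liver-type lists the trend fit called 3 of 22 epithelial genes higher with miR-223-3p, DSC2, EPCAM and KRT19, beside 0.181% of all genes. It called 3 of 13 genes of serine and folate metabolism higher with miR-29a-3p, PHGDH, PSAT1 and ALDH1L2, beside 0.334% of all genes. The gastric marker ANXA10 was lower with miR-223-3p, at 10.38 and 10.38 against 11.22 and 11.51, and MUC13 of the gut list was higher, at 10.40 and 10.51 against 9.72 and 9.44. No gene of the alveolar type 1, airway secretory, ciliated, basal, neuroendocrine, endodermal factor, pancreatic, leukocyte, mesenchymal, or fibroblast and endothelial lists was called in either comparison by either fit. The trend fit called 0.684% of all genes with miR-223-3p and 1.03% with miR-29a-3p. In lists this short an absence of calls is therefore no result about them. In the alveolar type 2 list ETV5 was called higher with miR-29a-3p in the trend fit.

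Among the 21 list genes called with miR-223-3p the largest difference was that of UPK3B, a uroplakin of the urothelium. It was 5.76 and 5.63 in control, between the floors, and 7.79 and 7.33 with the mimic. The log2 difference was 1.865, with a limma adjusted p of 0.00203 with the trend and 0.0855 with the constant prior. The limma adjusted p was 0.0447 when only the 11175 genes detected in both samples of at least 1 group were tested. LCN2, a siderophore-binding secreted protein, was also near the floor in control, at 5.53 and 6.21, and was 7.57 and 7.29 with the mimic (log2 difference 1.56). Both genes had groups that did not overlap, but both were picked by the trend fit, so this adds no support.

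The trend fit also called 7 further list genes lower with miR-223-3p, where it called 0.503% of all genes lower. SLC39A14, a zinc and iron importer, was 11.26 and 11.37 in control and 9.92 and 10.0 with the mimic (log2 difference -1.355). The secreted factors DKK1, an inhibitor of WNT signalling, STC1, a stanniocalcin hormone, and CCL2, a monocyte chemokine, had log2 differences of -1.325, -1.28 and -0.84. Smaller log2 differences were those of the metabolic enzymes MSMO1 (-0.685), EPHX1 (-0.5) and LDHA (-0.405).

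With miR-29a-3p the trend fit also called 4 further list genes higher and 5 lower. Of all genes 0.334% were called higher and 0.695% lower. The cystine importer SLC7A11 was 14.21 and 14.12 in control and 15.14 and 14.94 with the mimic (log2 difference 0.875). CXCL1, CXCL5 and CSF1, a pair of neutrophil chemokines and a macrophage growth factor, had log2 differences of 0.945, 0.555 and 0.48. The lower genes were the metallothioneins MT1X and MT2A (-0.765 and -0.445), OSTC of the oligosaccharyl transferase (-0.74), HMGCS1 of cholesterol synthesis (-0.675) and CYP1B1 (-0.655). Apart from TM4SF4, no list gene called in the trend fit passed limma with the constant prior when all genes were tested.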

How the data were processed

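The log2 values deposited by the authors, 1 per probe set on each array, came from RMA per the submitters' processing notes. These also name hg38 and give no RMA version. RMA makes array distributions alike, so total RNA changes are not seen, and dim probe sets are compressed toward background. Of 21448 probe sets 17709 have 1 gene in the platform annotation and 3739 are unnamed; all 17709 identifiers matched RefSeq (GRCh38.p14), and the brighter probe set was kept for genes with several, leaving 17687. Members, gene lists and tests were chosen with earlier results of these data known.

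Named genes were the 30 brightest by control mean, outside housekeeping classes, and in each list up to 6 members with the highest mean and members not detected. Other members were chosen after their values were seen. Some listed genes and 1 promoter motif are not reported here. In the contrasts the rule named list genes past the main limma test, or with none those past the trend fit; genes called for miR-29a-3p in the trend fit alone were named outside it, after their values were seen. Moderated tests used limma 3.58.1 in R 4.3.3 on all 6 arrays, with 3 residual degrees of freedom and Benjamini-Hochberg adjustment at 0.05. The constant-prior fit for miR-223-3p was also run on simulated arrays with known changes, and no statement here rests on that. The trend fit was not run on them. Floors, lists, motifs and plots were computed in Python 3.11.15. Only 2 arrays per group limit the precision. Alternatives were other floors, a second normalization, probe set means, the intensity trend, a replicate block, fewer groups or genes and leaving out samples.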

Additional observations from a re-analysis of the deposited data

How the results depend on the processing

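The count of detected control genes was 10881, and ran from 8484 to 9208 under the stricter floors and from 11071 to 11285 in 1 control sample alone. A second quantile normalization left it at 10881 and probe set means gave 10878. The stricter floor of keratin-associated and taste receptor genes moved the detected count of 11 of 34 lists by more than 1.5 times, so genes between the floors are neither clearly above nor at background in these values. For miR-223-3p limma called 0 genes, and 121 with the intensity trend. It called 3 when only the 11175 genes detected in both samples of at least 1 group were tested. For miR-29a-3p it called 2, and 182 with the trend and 20 among those 11175 genes. Leaving out any 1 of the samples compared gave 0 in each comparison. The replicate block gave 0 for miR-223-3p and 0 for miR-29a-3p. The letters were not taken to pair samples, since nothing states a pairing. The A minus B differences of the groups correlated at 0.0039 to 0.1345 over all genes. Those include genes not detected, so these values cannot settle whether samples were paired. No list gene named in the contrasts changed direction under any alternative.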

Other observations

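Several gene families outside the lists, picked after their values were seen, also describe the control cells. All 5 measured GAGE genes, cancer-testis antigens normally read in the germ line, were bright, beside 9.56% of all genes. GAGE12G measured 15.11 in sample A and 15.14 in sample B, and GAGE1 13.39 and 13.69. Of 10 MAGEA genes 8 were detected and 6 passed the stricter floor, where 61.5% and 48.0% of all genes did. Among them were MAGEA2 at 11.02 and 11.22 and MAGEA4 at 10.66 and 10.92. Members of both families are near-identical, so signals of single members are uncertain.

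Of 34 ABC transporters 13 were detected, a smaller share than the 61.5% of all genes. The multidrug resistance proteins ABCC2 and ABCC3, exporters of conjugated drugs and bile pigments, measured 14.63 and 14.43 and 14.19 and 14.15, and ABCG2 10.38 and 10.48. Among 42 keratins, KRT85, a hair keratin, measured 10.56 and 11. Of 23 measured HOX genes, which mark position along the body axis, 8 were detected, again a smaller share than over all genes. HOXB7, at 7.56 and 7.48, was the 1 past the stricter floor, which 48.0% of all genes passed.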
